A study of Mus musculus with 37 samples.

Results

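Transcripts of 10 genes known from granulosa and cumulus cells, the somatic cells that surround the oocyte in the ovarian follicle, were followed in libraries of single mouse oocytes. The genes were Ccnd2, Gja1, Grem1, Inhba, Inhbb, Inha, Fshr, Hsd3b1, Cyp11a1 and Cyp19a1, 10 of 54752 genes in the deposited tables. They were chosen by their known role and by their counts in germinal vesicle (GV) and metaphase I (MI) oocytes of batch B, so their values in that batch are given as a description, with no test. The question was whether their counts rose and fell together among oocytes of a stage, as RNA from attached cells would.

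Each library held the RNA of 1 oocyte of a C57BL/6 female mouse. Batch A had 6 GV oocytes, arrested before the first meiotic division, and 6 metaphase II (MII) oocytes, and batch B had 10 GV oocytes and 15 MI oocytes, 37 in all. GV oocytes came from the ovaries of young females primed with a gonadotropin, MII oocytes from the oviduct after an ovulatory dose of a second hormone, and MI oocytes from denuded GV oocytes matured in culture. Oocytes were freed of cumulus cells with an enzyme, their zona was dissolved and the polar body removed, and they were washed before lysis. RSEM expected counts summed to between 7509875 and 12648629 per GV oocyte of batch A and between 9930485 and 13988444 per MII oocyte. In batch B the range was 7184205 to 17724506 for GV and 2709280 to 19390128 for MI oocytes. In MII oocyte 1, 29518 genes had at least 1 count, while the 5 other MII oocytes had at most 22244. Fits that rest on this oocyte are given without it as well, but the correlations of gene lists at MII were not repeated without it. GV and MI oocytes share batch B and GV and MII oocytes share batch A, so MI and MII were not compared directly.

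Granulosa cells and the oocyte exchange small molecules through gap junctions. Granulosa cells make inhibins and activins and, under follicle-stimulating hormone, enzymes of steroid synthesis, among them the aromatase that makes estradiol. Cumulus cells are the granulosa cells that directly surround the oocyte and are ovulated with it. Oocytes themselves express some of the same genes, so a count in an oocyte library does not by itself name its source.

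The counts of the 10 genes were low except for Cyp19a1. Levels are given as CPM, the usual depth-scaled count, taken over all genes of the oocyte without spike-ins. Summed over the 10 genes, they came to a median of 32.5 CPM in GV oocytes of batch A (19.1 to 40.2), 17.3 in MII oocytes (15.3 to 27.2), 24.1 in GV oocytes of batch B (21.4 to 40.9) and 13.3 in MI oocytes (7.67 to 25.1). By HTSeq counts the medians were 45.4, 25.7, 47.2 and 27.1 CPM, which put GV oocytes of batch B above those of batch A. Cyp19a1, aromatase, held 72.3% of the genes' mean summed level over the 37 oocytes. Without it the RSEM medians were 14.6, 1.81, 9.78 and 0.884 CPM. That sum was formed after the values were seen and was not tested. Fewer attached cells, less RNA per attached cell and less RNA of the oocyte's own cannot be told apart in such levels. The plot shows GV oocytes of both batches spread more widely in CPM than MI or MII oocytes for Ccnd2, Gja1, Inhba, Inha and Fshr. The mean levels of these genes were higher in GV oocytes too. For Grem1 and Inhbb, GV oocytes of batch A were spread less widely than MII oocytes. For Hsd3b1 and Cyp11a1, those of batch B were.

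**Figure D1:**
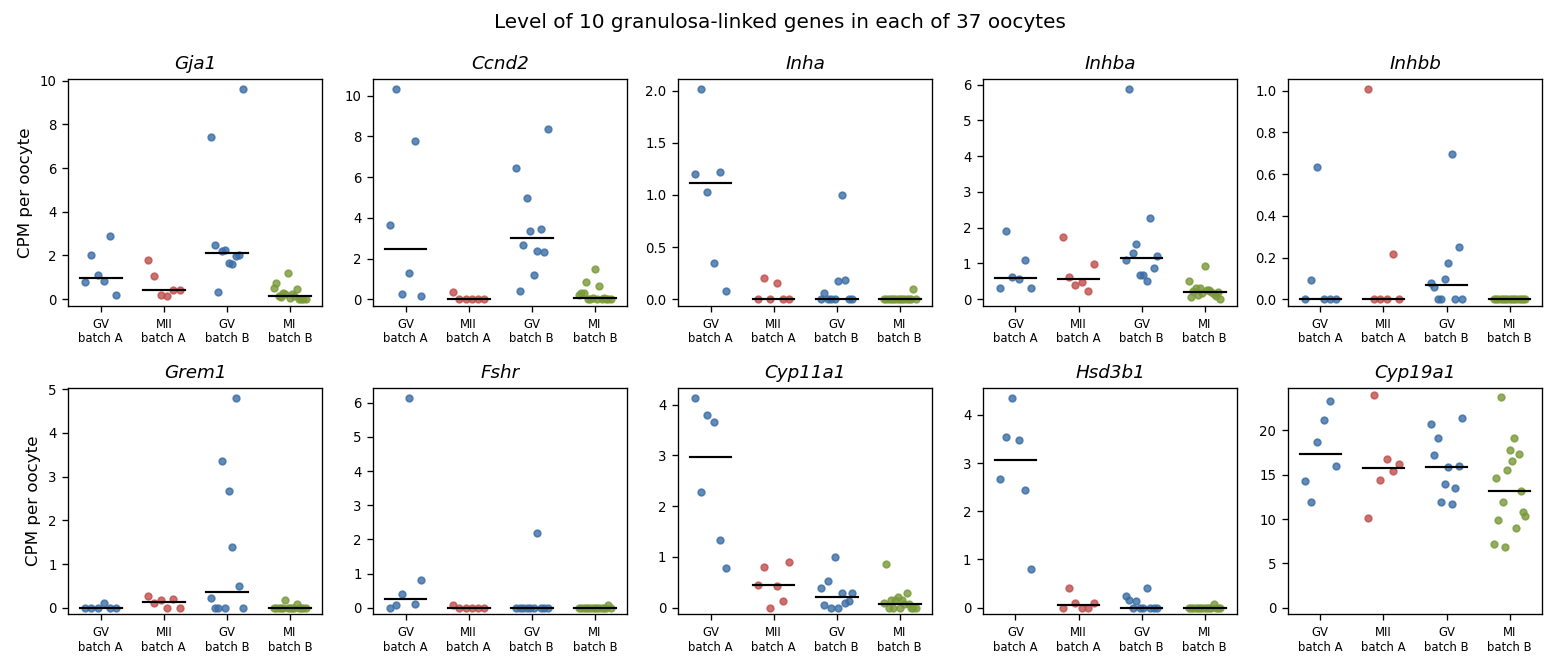
Level of each of the 10 genes in depth-scaled counts (CPM, vertical axis) in each oocyte (points), by stage and batch, with the group median as a line. Cyp19a1 is at 6.79 CPM or above in every oocyte, while Hsd3b1 and Cyp11a1 are higher in most GV oocytes of batch A than in the other groups.

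The 24 other granulosa and cumulus genes ranged from high counts in every oocyte to almost none. Over the 37 oocytes together, Serpine2 had 49251 counts, Esr2 18029, Nr5a2 6824, Slc18a2 4957, Col4a1 4801, Col4a2 3705, Lama1 2231, Greb1 2047 and Kitl 1954, and each of these 9 was detected in at least 36 oocytes. Wnt4 (395 counts), Star (353), Krt8 (220), Socs2 (165) and Lhcgr (103) were detected in 20 to 33 oocytes. Fst had 64.5 counts, Nr5a1 50.7, Nap1l5 26, Hsd17b1 17 and Foxl2, a granulosa transcription factor gene, 11. The remaining 5 had at most 10 counts, with 5 for Bex2, 3 for Krt18, 2 for Gatm, 2 for Amh, which encodes anti-Müllerian hormone, and 1 for its receptor gene Amhr2. Of 10 genes of cumulus expansion, Has2 had 670 counts, and Ptx3, Areg, Ereg and Cd44 had at most 10, with none for Areg. Serpine2 was at 186 ± 22.6 CPM (SD, n = 6) in GV oocytes of batch A and 72.7 ± 19.0 (n = 10) in those of batch B. It held 52.3% of the mean level of the list. The 24 genes summed to a median of 314 CPM in GV oocytes and 347 in MII oocytes of batch A, and to 159 in GV and 170 in MI oocytes of batch B. The 10 expansion genes, with Has2 holding the most counts, summed to medians of 2.33, 1.10, 0.433 and 1.56 CPM in the same order. Known granulosa genes thus lay at both ends of the range, the 10 genes are reported by name, and the source of their RNA was not tested.

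Gja1 (ENSMUSG00000050953.10, chromosome 10, 56377330 to 56402513, plus strand; positions here and below are of GRCm38) encodes connexin 43, the gap junction protein of cumulus cells. Its expected counts in GV oocytes of batch A ran from 2.23 to 26.2 with a median of 10.6, and in MII oocytes from 2 to 19.4 with a median of 5.11. The groups overlapped and the gene was not called (log2 fold change −0.74 ± 0.67 SE, MII minus GV, adjusted p = 0.453). By HTSeq counts the log2 fold change was −1.90 (adjusted p = 0.112) with spike-in size factors −1.44 (adjusted p = 0.154) and without MII oocyte 1 −1.28 (adjusted p = 0.285), and the gene was called in none of these 3 fits. In batch B the counts were 4 to 162 (median 22.3) in GV oocytes and 0 to 20.9 (median 2) in MI oocytes. GV oocytes 10 and 1 were highest, at 162 and 95 counts, and 9 of 10 GV oocytes lay above every MI oocyte in CPM. Ccnd2 (ENSMUSG00000000184.12, chromosome 6, 127125162 to 127152193, minus strand), cyclin D2, drives the granulosa cell cycle. It had 2 to 114 counts (median 19.3) in GV oocytes of batch A, and 4 counts in MII oocyte 1 and none in the other 5. The groups overlapped in 2 GV oocytes, those with 3 and 2 counts. The fall in CPM passed the test (log2 fold change −5.53 ± 0.75 SE, adjusted p = 8.07e-10 by edgeR's quasi-likelihood test). Without MII oocyte 1, the MII group had no counts of it and the fitted log2 fold change was −8.21 (adjusted p = 8.88e-15), a value that depends on the prior count. In batch B, counts were 7 to 141 (median 35.3) in GV and 0 to 29 (median 1) in MI oocytes, with 8 of 10 GV oocytes above every MI oocyte. By the HTSeq counts the gap was narrower, with 3 of 10 GV oocytes above every MI oocyte. MI oocytes had 0 to 111 counts by HTSeq, and the highest oocyte differed. MI oocyte 8 had 29 counts by RSEM and 0 by HTSeq, and MI oocyte 2 had 4 and 111.

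Inha (ENSMUSG00000032968.4, chromosome 1, 75507077 to 75510366, plus strand) encodes the alpha subunit that makes an inhibin of a beta subunit. GV oocytes of batch A had 1 to 22.2 counts (median 10), and 2 of 6 MII oocytes had 2 counts and the others none. The GV oocyte with 1 count overlapped with the MII group and the 5 others lay above it. The fall passed the test (log2 fold change −3.58 ± 0.99 SE, adjusted p = 0.0082), but not in the fit of all 37 oocytes with a batch term (adjusted p = 0.131). In GV oocytes of batch B the gene was at 0 in 6 of 10 oocytes and at 10 counts in oocyte 7, 15 counts in all, and the 15 MI oocytes had 1 count together. Inhba (ENSMUSG00000041324.14, chromosome 13, 16011851 to 16031621, plus strand), the beta A subunit, had a median of 6.5 counts in GV and 6.12 in MII oocytes of batch A, with overlapping groups, and was not called (log2 fold change 0.08 ± 0.71 SE, adjusted p = 0.966, and −0.82 by HTSeq counts, −0.57 with spike-in size factors and −0.34 without MII oocyte 1). In batch B it had 5 to 104 counts (median 14.1) in GV oocytes, with the 104 in oocyte 2, and 0 to 17.9 (median 2.97) in MI oocytes. Inhbb (ENSMUSG00000037035.5, chromosome 1, 119415465 to 119422248, minus strand), the beta B subunit, had 9 counts over the 6 GV and 14 over the 6 MII oocytes of batch A, 11 of them in MII oocyte 1, and was not called (log2 fold change 0.75 ± 1.17 SE, adjusted p = 0.701, and −1.02 without that oocyte). In batch B it had 16 counts over 10 GV oocytes, 7 of them in oocyte 7, and none in 15 MI oocytes.

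Grem1 (ENSMUSG00000074934.3, chromosome 2, 113746164 to 113758646, minus strand) encodes gremlin, a secreted antagonist of bone morphogenetic proteins made by cumulus cells. It had 0.95 counts over the 6 GV oocytes of batch A and 8.66 over the MII oocytes, too few to compare. In batch B, GV oocytes 4, 6, 7, 8 and 9 had 24.1, 31, 14, 51.2 and 8 counts, oocyte 1 had 3, and the 4 others had 0. The 15 MI oocytes had 3 counts together. Fshr (ENSMUSG00000032937.5, chromosome 17, 88984952 to 89200675, minus strand) encodes the receptor of follicle-stimulating hormone, a granulosa marker. In GV oocytes of batch A it had 0, 1, 5, 53, 1 and 10 counts, and 1 count in MII oocyte 1 and none in the 5 others. GV oocyte 4 held 75.7% of the group's counts. The pooled ratio was 77.2 with a counting interval of 13.4 to 3091 (log2 fold change −5.40 ± 1.12 SE, adjusted p = 0.000116). The log2 fold change was −4.65 by HTSeq counts (adjusted p = 5.13e-05) and −6.68 without MII oocyte 1 (adjusted p = 7.31e-06), where the MII group had no counts. Without GV oocyte 4, an alternative added after the values were seen, the gene was not called (log2 fold change −3.38, adjusted p = 0.152). In batch B, GV oocyte 7 had all 22 counts of its group, and MI oocyte 14 had 1.

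Cyp11a1 (ENSMUSG00000032323.13, chromosome 9, 58006411 to 58027023, plus strand) encodes the enzyme that cleaves the cholesterol side chain, and Hsd3b1 (ENSMUSG00000027871.16, chromosome 3, 98852194 to 98859794, minus strand) a dehydrogenase that makes progesterone. GV oocytes of batch A had 9.85 to 48 counts of Cyp11a1 (median 28.0), and MII oocytes 0 to 9 (median 5.25). In CPM 5 of 6 GV oocytes lay above every MII oocyte. The fall passed the test (log2 fold change −2.33 ± 0.60 SE, adjusted p = 0.00358, and −2.97 by HTSeq counts), but not in the fit of all 37 oocytes with a batch term (adjusted p = 0.211). Hsd3b1 had 10.1 to 55 counts (median 26.0) in GV oocytes and 0 to 4 (median 0.5) in MII oocytes. By RSEM it was the 1 gene of the 10 whose groups did not overlap, with every GV oocyte above every MII oocyte, where 3.32% of 36863 genes tested did so. By HTSeq every GV oocyte lay above every MII oocyte for Cyp11a1 as well, but the share of all genes that did so by HTSeq was not counted. The fall passed the test (log2 fold change −4.61 ± 0.73 SE, adjusted p = 1.27e-07, and −3.71 by HTSeq counts). Hsd3b1 has closely related family members, and how reads were shared among them was not tested, so its counts are uncertain. In GV oocytes of batch B, Hsd3b1 had at most 4 counts and Cyp11a1 at most 10.4. HTSeq gave Hsd3b1 up to 17 counts there and up to 26 in MI oocytes, against 1 by RSEM.

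Cyp19a1 (ENSMUSG00000032274.9, chromosome 9, 54165937 to 54268110, minus strand), the enzyme that makes estradiol, had the most counts of the 10 genes in every group. They were 107 to 236 (median 192) in GV and 111 to 238 (median 187) in MII oocytes of batch A, a mean of 17.5 ± 4.31 against 16.1 ± 4.50 CPM (SD, n = 6 each). The groups overlapped and the gene was not called (log2 fold change 0.10 ± 0.23 SE, adjusted p = 0.800, and −0.58 with spike-in size factors). In batch B it had 86 to 362 counts in GV and 28 to 345 in MI oocytes, 16.1 ± 3.47 and 13.6 ± 4.80 CPM. All 37 oocytes had counts of it, and 99.9% of its counts were in protein-coding transcripts. Of them, 6490 of 6890 were assigned to the transcript Cyp19a1-201.

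Over all genes, 5.04% of 36863 genes were called between GV and MII oocytes of batch A, by an adjusted p under 0.05 and a fold over 2. Of the 10 genes, 5 were called, all lower at MII (Ccnd2, Inha, Fshr, Hsd3b1 and Cyp11a1), against 2.62% of all genes, and 0 were called higher, against 2.43%. The 10 were chosen partly by their counts in GV and MI oocytes of batch B, with earlier results of these data known. Their share beside that of all genes is thus a description and no independent support. The median log2 fold change of the 10 genes was −1.53, beside 0.27 over all genes tested. With the size factors taken from the spike-ins, the median of all genes shifted by −0.65, and 5 of the 10 genes and 3842 of all genes were called lower, beside 964 of all genes by TMM. Without MII oocyte 1, the same 5 genes were called. Of all genes, 397 were then called higher and 928 lower, beside 895 and 964 with it. The median was 0.02 over the 32895 genes tested without it, and on genes shared by both fits it shifted by −0.10. Without GV oocyte 4, all of the 5 called genes but Fshr were called, and with all 37 oocytes and a batch term only Ccnd2, Fshr and Hsd3b1. The 5 calls rested on low counts, and only Cyp19a1 of the 10 passed edgeR's filter on low counts, where none was called. P-values measure the spread between these oocytes, which the labels do not tie to separate animals. Of the 34 other granulosa and cumulus genes, 33 were tested and none was called by edgeR or DESeq2, with 4 and 1 at an unadjusted p under 0.05. With spike-in size factors edgeR called 4 of the 33, Kitl, Krt8, Col4a1 and Lama1, all lower. In batch B none of 11 such genes tested was called by edgeR or DESeq2 (3 at an unadjusted p under 0.05 by each), where edgeR called 0.121% of 12419 genes in all, 0.0322% lower and 0.0886% higher at MI, and DESeq2 called 116 genes, 13 lower and 103 higher.

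Compared per kilobase of transcript, Cyp19a1 led in GV oocytes of both batches, at 7.38 ± 1.81 CPM per kilobase (SD, n = 6) in batch A and 6.79 ± 1.46 (n = 10) in batch B. In batch A it was followed by Hsd3b1 at 1.67 ± 0.708, Cyp11a1 at 1.07 ± 0.567, Ccnd2 at 0.675 ± 0.735, Inha at 0.665 ± 0.468 and Fshr at 0.532 ± 1.02. Next in batch B were Gja1 at 0.994 ± 0.921, Ccnd2 at 0.616 ± 0.418, Inhba at 0.329 ± 0.325 and Grem1 at 0.313 ± 0.417. Apart from the gap below Cyp19a1, neighbours named here differed by no more than the larger SD of the pair. The values of the 2 batches stand side by side only, since batch and oocyte source cannot be told apart between them.

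Whether the genes rose and fell together within a stage was described with correlations, which did not decide it. In GV oocytes of batch B, whose values were used to choose the genes, the highest level was in oocyte 10 for Ccnd2, Gja1 and Cyp19a1, in oocyte 8 for Grem1, in oocyte 2 for Inhba, in oocyte 5 for Cyp11a1 and in oocyte 7 for Inhbb, Inha, Fshr and Hsd3b1. Oocyte 10 had no count of Grem1, Inha or Fshr. On the scale of log2(CPM + 1), the 5 genes with a mean of at least 10 counts there correlated with the mean of the other members at a median Pearson r of −0.27, between −0.45 and 0.15 (n = 10). Over 12566 other genes with such a mean the median correlation with the mean of the 10 was −0.17, with 95% of them between −0.69 and 0.51. The median of the 5 genes was −0.02 with a pseudocount of 0.1, −0.0032 by HTSeq and −0.08 without the oocyte highest in the members. Of 10 pairs 5 correlated above 0. Ccnd2 with Gja1 had r = 0.59 and Spearman's rho = 0.47 (0.61 and 0.88 by HTSeq), and Grem1 with Cyp19a1 r = −0.66 and rho = −0.68. In the same oocytes Cyp19a1 correlated with the number of genes detected at r = 0.79 and with log2 depth at 0.72, and Grem1 at −0.71 and −0.62, and the part of these measures in the correlations was not tested. In GV oocytes of batch A, 6 genes reached the mean of 10 counts, with a median of 0.30 (−0.30 to 0.76, n = 6) beside 0.18 over all genes, 95% of which lay between −0.83 and 0.86. The median was 0.37 with a pseudocount of 0.1, 0.32 by HTSeq and 0.48 without the oocyte highest in the members. Of 15 pairs 10 correlated above 0. There Ccnd2 with Gja1 had r = 0.79 and rho = 0.71, and Hsd3b1 with Cyp11a1 r = 0.80 and rho = 0.60. Fshr with Ccnd2 had r = −0.42 and rho = −0.66. By HTSeq, Inha and Inhba also reached the mean of 10 counts there, and of 28 pairs 17 correlated above 0, with r from −0.55 for Fshr with Inha to 0.92 for Gja1 with Inha. Ccnd2 with Gja1 had r = 0.84 and rho = 0.94 by HTSeq, and Inhba with Cyp19a1 r = −0.53 but rho = 0.09. In these oocytes the RSEM levels of Gja1, Inha, Ccnd2 and Inhba correlated with the number of genes detected at r = 0.79, 0.72, 0.60 and 0.48, and that of Fshr at −0.81. In MII and MI oocytes only Cyp19a1 reached the mean of 10 counts by RSEM, with r = −0.33 (n = 6) and 0.24 (n = 15) to the mean of the others. At MII this turned to 0.89 without the oocyte highest in the members. By HTSeq, Ccnd2 and Gja1 reached it in MI oocytes too, with r = 0.53 and rho = 0.63 (n = 15). The points of a group share batch and stage, and with counts this low a weak correlation is no finding.

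**Figure D2:**
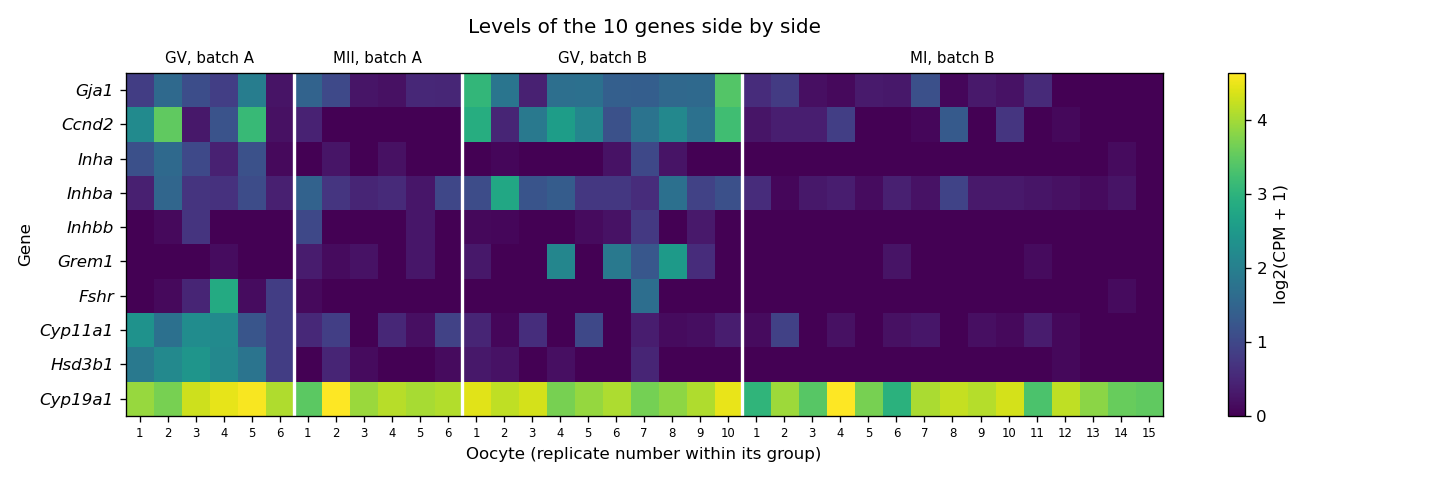
Level of the 10 genes (rows) in each of the 37 oocytes (columns, by stage and batch and by replicate number), as log2(CPM + 1) in color. Within the 10 GV oocytes of batch B, Gja1 and Ccnd2 are detected in all 10 and are highest in oocyte 10, Grem1 is detected in 6 and is highest in oocyte 8, and Fshr is detected in oocyte 7 alone.

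Among the other genes whose level followed the mean of the 10 most closely over the GV oocytes of batch B (n = 10, of 12566 genes compared) were Dusp10 (r = 0.93, rho = 0.88), Sap25, 6330562C20Rik, Cyp4v3, Iqcf5, Lbp, Ptprd, Slco4c1 and Mtch2 (r = 0.81 for the last). These were picked as the highest of many correlations, in oocytes whose values were used to choose the 10 genes, so their height there is no support. Over the GV oocytes of batch A (n = 6), r was 0.61 for Dusp10, 0.50 for Mtch2 and −0.81 for Cyp4v3. The others named here lay between −0.18 and 0.15. Dusp10 was at −0.44 at MI and −0.02 at MII.

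The transcripts assigned by RSEM differed among the genes. Cyp11a1 had 92.2% of its counts in protein-coding transcripts in GV oocytes of batch A, but 60.2% of its 29.4 counts in MII oocytes, 62.0% of its 33.4 counts in GV oocytes of batch B and 73.6% of its 26.5 counts in MI oocytes were in a retained-intron transcript. Gja1 had 85.1% and 96.6% of its counts in protein-coding transcripts in GV oocytes of batch A and B, and 34.1% and 42.3% in MII and MI oocytes. Ccnd2 had 99.1% and 99.5% in GV oocytes of batch A and B, and 97.1% of its 60 counts in MI oocytes. Of the MI counts, 68.0% were in the transcript Ccnd2-206, of 627 bases, and 27.0% in Ccnd2-201, of 6330 bases. In GV oocytes of batch B these shares were 3.31% and 95.5%. The MII oocytes had 4 counts of it, too few for shares.

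Genes of related pathways and of the oocyte were counted for comparison. Of 13 other genes of steroid synthesis, 1 was called between GV and MII oocytes, Hsd3b2, higher at MII (log2 fold change 4.02 ± 0.54 SE, adjusted p = 3.62e-10), with its highest count of 410 in MII oocyte 1. Without that oocyte its log2 fold change was 2.05 ± 0.62 SE (adjusted p = 0.0198). Hsd17b7 held the most counts of the list. Of 17 receptors, antagonists and Smads of activin and bone morphogenetic protein signalling, Acvr1 was called higher at MII (log2 fold change 1.12 ± 0.32 SE, adjusted p = 0.00997), and Bmpr1b held the most counts. Of 10 connexin, junction and cyclin D genes, Cdk4 was called lower (log2 fold change −1.30 ± 0.39 SE, adjusted p = 0.0200), and Gja4, the connexin of the oocyte side of the junction, held the most counts. Gja4 was at 483 ± 140 CPM (SD, n = 6) in GV oocytes of batch A. Of 12 oocyte genes, 5 were called lower at MII, with Zp3, Zp2 and Zp1 at the smallest adjusted p (9.54e-19 for Zp3), and Gdf9 held the most counts. Without MII oocyte 1, 4 of these 5 were called, among them Zp3, Zp2 and Zp1.

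Markers of other cells were also counted. Summed levels of 10 theca and stroma genes, with Col3a1 holding the most counts, had a median of 1.76 CPM in GV oocytes of batch A and 1.80 in those of batch B, 0.849 at MII and 0.677 at MI. Insl3 and Lum of that list had at most 10 counts. Of 6 endothelial genes, Pecam1 held the most counts and was called lower at MII (log2 fold change −1.15 ± 0.18 SE, adjusted p = 1.62e-07), while Cdh5 had 2 counts and Emcn none. Of 10 blood and immune genes, Hbb-bs held the most counts, and Lyz2 had 10 counts, Cd74 6 and S100a8 2. Hbb-bs, Hba-a1 and Hba-a2 were called higher at MII with MII oocyte 1 and not without it (adjusted p = 0.485, 0.502 and 0.671). Hbb-bs had 4.47 to 62.6 counts in GV oocytes of batch B. Of 6 oviduct genes, Epcam held the most counts and none was called by edgeR in either batch, with 1 of 6 at an unadjusted p under 0.05 in batch A and 0 of 2 in batch B, and Cldn3 had 3 counts. Over the oocytes of a group, the mean log2(CPM + 1) of each list was correlated with that of the 10 genes (n = 6, 6, 10 and 15, with MII oocyte 1 included). The other granulosa genes correlated with the 10 at r = 0.54 in GV oocytes of batch A, 0.68 at MII, −0.37 in GV oocytes of batch B and 0.26 at MI. By Spearman's rho they were at 0.37, 0.26, −0.44 and 0.30 in the same order. The theca and stroma genes were at r = 0.31, 0.43, 0.29 and 0.82 in the same order. In MI oocytes the mean of the 10 genes also correlated with log2 depth at r = 0.60 and with the number of genes detected at 0.44. The part of these measures was not tested. The oviduct genes were at r = −0.10, 0.91, 0.11 and 0.02, and the oocyte genes at 0.73, 0.24, −0.19 and 0.12. The cumulus expansion genes were at r = 0.06, 0.88, 0.07 and 0.24, the blood and immune genes at 0.39, 0.65, 0.48 and 0.02, and the endothelial genes at −0.16, 0.22, 0.16 and 0.35. By Spearman's rho at MII, the blood and immune genes were at −0.09, the cumulus expansion genes at 1 and the oviduct genes at 0.77. MII oocyte 1 had 15.7 CPM of the blood and immune genes, and the other MII oocytes at most 2.07. The steroid genes were at r = 0.24, 0.34, −0.33 and 0.03, the activin and bone morphogenetic protein genes at −0.10, 0.77, −0.43 and 0.63, and the connexin and cyclin D genes at −0.30, 0.24, −0.13 and 0.11. No list was above 0.5 in all 4 groups, and the part of other cells in the values of the 10 genes was not tested.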

How the data were processed

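Single oocytes had been sequenced by the Smart-seq2 protocol. Per the authors' processing notes, reads were trimmed with Trim Galore 0.6.4 and aligned with STAR 2.7.6a. The deposited expected counts per gene and transcript were made by the authors with RSEM 1.3.1, and the deposited counts per gene with HTSeq 0.12.4. Symbols and positions came from GENCODE M21, which named 54723 of 54752 features, and 92 spike-ins were left out. The paper names an earlier GENCODE release for its counts.

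CPM used the sum of all expected counts of an oocyte as the depth. For tests, expected counts were rounded to whole numbers, scaled by TMM and fitted with the quasi-likelihood method of edgeR 4.0.16 in R 4.3.3, two-sided, with p adjusted over all genes tested (Benjamini-Hochberg). Genes with at least 1 count entered the fit of batch A, and genes kept by filterByExpr that of batch B. A gene was called at an adjusted p under 0.05 and a fold over 2. Both fits were tested on simulated data, where the fit of batch B without a filter made many false calls. DESeq2 1.42.0 was an alternative, beside other filters, size factors, HTSeq counts, a replicate block, a batch term and left-out oocytes. Correlations used log2(CPM + 1) and genes with a mean of at least 10 counts. The ratio with 1 count in a group has a 95% interval. PCR reads carry no molecular identifiers, so the interval covers counting error only. Python 3.11.15, pandas 2.3.3, scipy 1.17.1 and matplotlib 3.10.9 were used.

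The members and lists were chosen with earlier results of these data known. Some alternatives, the sum without Cyp19a1 and the fits without GV oocyte 2 or 4 of batch A, were chosen after the values were seen. Genes named beyond the 10 members were, for each list, the gene with the highest mean CPM and up to 3 called genes in each direction, besides genes among the 10 that best followed the members in GV oocytes of batch B, of which 1 is not reported here. After the values were seen, all 24 granulosa genes and genes of other lists with 10 or fewer counts were named as well.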

Additional observations from a re-analysis of the deposited data

Results flagged for a closer look

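Of 30 sets of values, each 1 of the 10 genes in a group of 6 or 10 oocytes, 12 had an oocyte whose highest value lay far from the others relative to the range of the group. The 10 genes were chosen partly by their values in batch B, so the flags are a description and are set against no chance rate. Many of these sets are mostly 0, where a single count is enough.

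Among GV oocytes of batch A, oocyte 4 had 6.1419 CPM of Fshr (next 0.7978) and 0.1101 of Grem1 (next 0), and oocyte 3 had 0.6325 of Inhbb (next 0.0908). Among MII oocytes, oocyte 1 had 0.3657 CPM of Ccnd2 (next 0), 1.0055 of Inhbb (next 0.2145) and 0.0914 of Fshr (next 0), and oocyte 2 had 0.4028 of Hsd3b1 (next 0.0992).

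Among GV oocytes of batch B, oocyte 7 had 2.1937 CPM of Fshr (next 0), 0.9971 of Inha (next 0.1874) and 0.698 of Inhbb (next 0.2509). Oocyte 2 had 5.8676 of Inhba (next 2.2856), and oocyte 5 had 0.9975 of Cyp11a1 (next 0.5203).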

How the results depend on the processing

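With edgeR's filter on low counts, 1 of the 10 genes was tested in batch A and 0 were called, and 1095 genes were called in all. With all 37 oocytes and a batch term, 3 of the 10 were called (Ccnd2, Fshr and Hsd3b1; adjusted p = 0.131 for Inha and 0.211 for Cyp11a1, at log2 fold changes of −3.57 and −2.32, beside −3.58 and −2.33) and 751 genes in all. Spike-in size factors gave 4 other granulosa and cumulus genes (Kitl, Krt8, Col4a1 and Lama1, all lower) and 4452 genes in all, 13.7% of them higher at MII against 48.1% by TMM. They turned the log2 fold change of Inhba to −0.5692 and of Cyp19a1 to −0.5817. HTSeq counts gave 1097 genes in all and −0.8162 for Inhba. Without MII oocyte 1, Inhba was at −0.3432 and Inhbb at −1.021. Without GV oocyte 2, Inhba was at 0.5543 and Inhbb at 0.6677. Without GV oocyte 4, 4 of the 10 were called. In batch B, 40 genes were called with no filter, a fit that made many false calls on simulated data, 116 by DESeq2, 36 without MI oocytes 4, 8 and 9, and 0 by HTSeq counts under edgeR (927 at an unadjusted p under 0.05), beside 15 by the fit of the report. The cause was not tested.

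With the replicate numbers as a block, edgeR called 5 of the 10 genes and 1417 genes in all in batch A, and 0 genes in all in batch B (964 at an unadjusted p under 0.05). The correlation of samples with the same number was over 0.1 in 1 of 6 pairs of batch A and 1 of 10 of batch B, so the numbers are no sign of pairing.

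The median summed level by HTSeq was 45.4226 CPM in GV and 25.7175 in MII oocytes of batch A, and 47.1608 in GV and 27.1167 in MI oocytes of batch B. With the ribosomal RNA-like gene CT010467.1 left out of the depth it was 39.1312 in GV oocytes of batch A and 23.193 at MII. In batch B it was then 32.8617 in GV and 19.7087 in MI oocytes. The correlation of Cyp19a1 with the other members was −0.2877 at MII with a pseudocount of 0.1, −0.48 by HTSeq and 0.8886 without the oocyte highest in the members. At MI it was 0.1392 with that pseudocount and 0.1429 without the oocyte highest in the members. By HTSeq the value at MI, 0.3298, was the median over Cyp19a1, Ccnd2 and Gja1. Of the log2 fold changes, 83 kept their direction and call, 5 turned and 3 lost the call.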
